A study of Homo sapiens with 6 samples.

Results

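The 8 genes described here encode cell surface adhesion proteins: the cadherins CDH1, CDH2, CDH3, CDH6, CDH11 and CDH13, the protocadherin PCDH7 and the neural cell adhesion molecule NCAM1. They were taken by symbol from the 58336 genes of an RNA sequencing experiment, and each symbol matched 1 gene ID. They were chosen by their expected counts and TPM in these clones and by the difference between genotypes, so their levels and their differences between genotypes are a description and carry no test. The cells were clones of KGN, an established line from a human ovarian granulosa cell tumour in which 1 of the 2 copies of FOXL2, the gene of a forkhead factor needed for granulosa cell identity, carries the C134W protein change. In the FOXL2 WT/C134W group were the libraries 3.11 (replicate 1), 44b (replicate 2) and 3.11-44b (replicate 3). In the FOXL2 WT/WT group, where CRISPR/Cas9 had been used to revert the C134W change, were the libraries 44a (replicate 1), 4.72 (replicate 2) and 4.72-44a (replicate 3). All 6 libraries came from RNA taken 30 h after a transfection that is not described further. The name of replicate 3 is in both groups made of those of replicates 1 and 2, so that library may be a mix, and differences between genotypes rest on the 4 single clones. Each single-clone library stands for 1 clone, editing is recorded for WT/WT alone, and genotype and editing cannot be told apart.

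Cadherins are calcium-dependent adhesion proteins that bind their like on the neighbouring cell and, through beta-catenin, p120-catenin and alpha-catenin, hold the actin cytoskeleton. E-cadherin (CDH1) marks epithelia and N-cadherin (CDH2) marks neural, mesenchymal and many gonadal cells, and ovarian granulosa cells are known to join to each other through N-cadherin. CDH13 lacks the catenin-binding tail and is held by a glycosylphosphatidylinositol (GPI) anchor. NCAM1 belongs to the immunoglobulin family instead and binds without calcium.

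Expected counts summed to between 35332727 and 42137567 in the WT/C134W libraries and between 41923218 and 46613068 in the WT/WT libraries. Levels are given as TPM (transcripts per 1e6, scaled for gene length) when genes are compared with each other. For the members and the neighbours of PCDH7, libraries are compared mostly in CPM (counts per 1e6, TMM-normalised). FOXL2, the markers and all other genes are given in TPM. Log2 fold changes rest on TMM-scaled counts unless stated, so TPM values and fold changes can differ in direction. A count of 3, taken as the floor of detection, lies from 0.0661 to 0.0784 CPM across libraries, a limit that takes in counting error alone. FOXL2 itself stood at 5.25 and 5.48 TPM in 3.11 and 44b (WT/C134W), against 3.70 and 2.36 TPM in 44a and 4.72 (WT/WT). A gene total does not tell its alleles apart. Of 12 granulosa cell markers, 7 reached 1 TPM in some library, with summed levels of 75.8 to 128 TPM in WT/C134W and 109 to 127 TPM in WT/WT, whereas FSHR, AMHR2 and GATA4 were at 0 throughout. Of 10 epithelial markers, 7 reached 1 TPM, while ESRP1 and GRHL2 were at 0. CDH1 reached it in 4.72 alone (1.65 TPM), EPCAM in 3.11 alone (1.17 TPM) and CLDN4 in 3.11-44b alone (1.46 TPM). The sums were 503 to 1491 TPM in WT/C134W and 1214 to 1590 TPM in WT/WT, mostly keratin KRT18. The endothelial list reached 1 TPM in 2 of 6 genes (sums of 1.65 to 5.17 TPM in WT/C134W and 0.59 to 3.18 TPM in WT/WT, CDH5 at 0). The leukocyte list reached it in 2 of 6 (93.9 to 106 TPM in WT/C134W and 93.5 to 101 TPM in WT/WT, nearly all CD68, with CD3E and ITGAM at 0). The neural list reached it in 4 of 6 (178 to 215 TPM in WT/C134W and 164 to 181 TPM in WT/WT, mostly TUBB3, with STMN2 at 0). The part of these markers in the values below was not tested.

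The cadherin transcripts of these cells were of 3 kinds, CDH11, CDH2 and CDH13. Among 20 classical and GPI-linked cadherins these 3 made up 98.1%, 97.1% and 95.8% of the summed TPM in 3.11, 44b and 3.11-44b (WT/C134W), against 97.0%, 97.5% and 97.2% in 44a, 4.72 and 4.72-44a (WT/WT). Of the 20, 13 stayed below 1 TPM in every library and 9 had no count at all. CDH11 came first in every library, with 45.5% to 55.0% of the sum in WT/C134W and 56.5% to 59.3% in WT/WT. CDH2 and CDH13 lay next to each other, at means of 110 and 115 TPM over the 6 libraries with overlapping ranges. Their order changed: CDH13 was the higher in all WT/C134W libraries and in 4.72, and CDH2 in 44a and, narrowly, in 4.72-44a. NCAM1, at a mean of 24.5 TPM, and PCDH7, at 6.17 TPM, were lower.

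**Figure D1:**
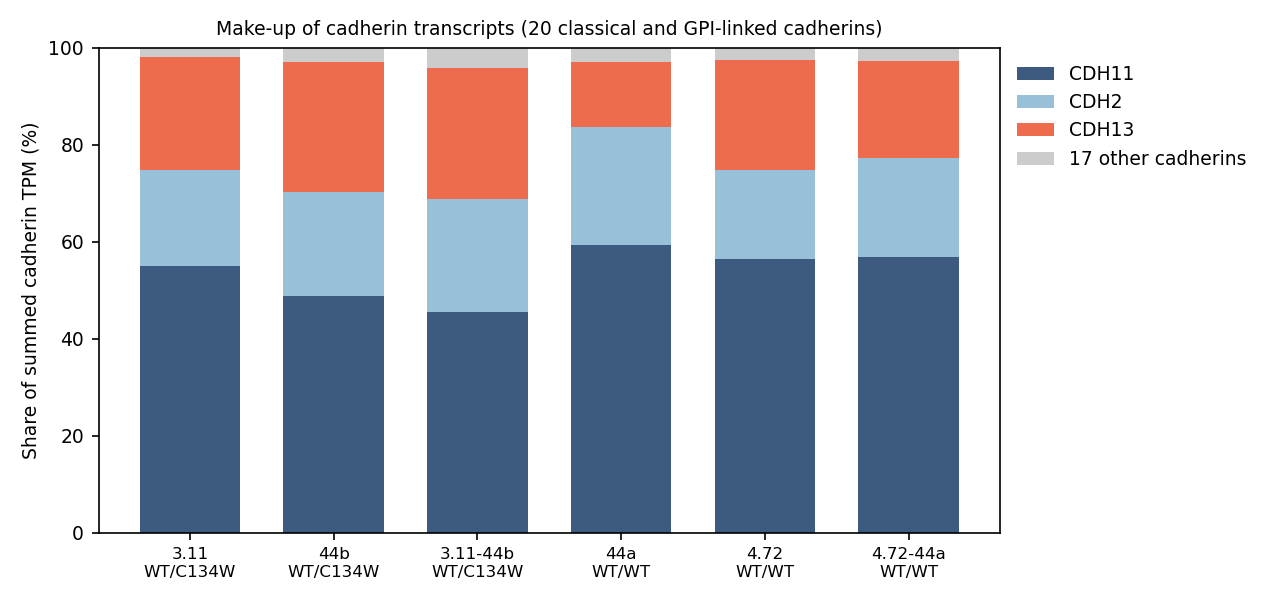
Share of each cadherin in the summed TPM of 20 cadherins (y axis, percent) for each library, WT/C134W libraries on the left and WT/WT libraries on the right. CDH11 is the widest band in every bar, CDH13 is narrowest in 44a at 13.4%, and the 17 other cadherins fill a thin band at the top.

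E-cadherin was close to absent. CDH1 (ENSG00000039068, chromosome 16, 68737225 to 68835548, plus strand, GRCh38) had 0 and 3 expected counts in 3.11 and 44b, against 11 and 7 in 44a and 4.72, and 0 in both joined libraries. Thus 3.11 lay under the floor of 3 counts, 44b on it, and 44a and 4.72 above it. In 4.72 its 7 counts were written as 1.65 TPM, beside a transcript length of 301 bases, while 11 counts in 44a gave 0.18 TPM at 2068 bases. On the CPM scale, which does not use length, 4.72 lay below 44a at 0.173 and 0.249 CPM. P-cadherin (CDH3), an epithelial cadherin whose gene lies beside CDH1 on chromosome 16 at 68636189 to 68722616, had 0 counts in all 6 libraries. CDH6 (K-cadherin, chromosome 5, 31193750 to 31329146), known from kidney and from ovarian carcinoma, had 4 counts in 4.72 and 0 in the other 5 libraries. These 3 genes did not pass the low-count filter and have no fold change. At this depth their absence means no more than a level under the floor of 3 counts wherever they were at 0.

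N-cadherin was abundant. CDH2 (ENSG00000170558, chromosome 18, 27950966 to 28177446, minus strand) ranked between 1048 and 1590 by TPM among 19863 protein-coding genes. Its normalised level was 246 and 223 CPM in 3.11 and 44b, against 330 and 315 CPM in 44a and 4.72. The joined libraries held 225 CPM (WT/C134W) and 339 CPM (WT/WT). All WT/C134W libraries thus lay below all WT/WT libraries. The mean was 234 ± 16.4 CPM in WT/C134W and 323 ± 10.6 CPM in WT/WT (SD, n = 2 clones each), a log2 ratio of WT/C134W to WT/WT (the log2 fold change throughout) of -0.46 ± 0.15 (SE derived from edgeR's F value). Scaled by library totals alone, the value was -0.24, and on the log2(TPM + 1) scale -0.27. These scalings place the median of all genes at 0.23 and 0.15, against 0.01 with TMM. In TPM, 3.11 (109) and 4.72 (112) were nearly level. Promoter windows of 300 bases, from 250 before to 50 after a start in RefSeq (GRCh38.p14), were at hand for CDH2 and PCDH7, and not for CDH1, CDH3, CDH6, CDH11, CDH13 and NCAM1. Both starts of CDH2 are shown because they set apart a GC-rich and an AT-rich start of the most abundant N-type cadherin, at chr18:28177081-28177380 and chr18:28036592-28036891 on the minus strand. Capitals mark every match to CAGGTG (the E-box of SNAI and ZEB repressors), GTAAACA (a forkhead core motif), GGGCGG (a GC box) or TATAAA, on either strand.
CDH2 upstream start: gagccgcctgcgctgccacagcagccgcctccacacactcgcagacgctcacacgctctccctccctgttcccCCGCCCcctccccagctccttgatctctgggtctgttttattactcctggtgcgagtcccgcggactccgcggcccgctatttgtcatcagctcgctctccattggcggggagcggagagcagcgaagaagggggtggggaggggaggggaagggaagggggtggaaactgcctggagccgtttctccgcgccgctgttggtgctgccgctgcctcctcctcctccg
CDH2 downstream start: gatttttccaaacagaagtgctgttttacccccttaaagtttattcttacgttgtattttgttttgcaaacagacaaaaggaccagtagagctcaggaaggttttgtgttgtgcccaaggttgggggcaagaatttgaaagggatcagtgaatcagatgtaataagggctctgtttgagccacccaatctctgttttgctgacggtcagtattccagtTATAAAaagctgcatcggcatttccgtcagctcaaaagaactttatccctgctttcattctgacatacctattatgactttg
The upstream window had 67.0% GC, 23 CpG dinucleotides and 1 GC box. The downstream window had 40.7% GC, 4 CpG dinucleotides and 1 TATAAA, 32 bases before the start. Of 34796 distinct promoter windows in the table, 44.9% hold GGGCGG, 11.6% TATAAA, 20.6% CAGGTG and 3.42% GTAAACA on either strand. Gene totals do not tell which start was in use.

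CDH11, a type II cadherin of mesenchymal cells (ENSG00000140937, chromosome 16, 64943753 to 65126112, minus strand), was the most abundant member. It ranked between 349 and 648 of 19863 protein-coding genes. It had 418 and 266 CPM in 3.11 and 44b, against 427 and 510 CPM in 44a and 4.72, and 290 and 497 CPM in the joined WT/C134W and WT/WT libraries. The genotypes did not overlap, but 3.11 lay just under 44a, and the low values were those of 44b and 3.11-44b. The mean was 342 ± 107 CPM in WT/C134W and 469 ± 58.8 CPM in WT/WT (SD, n = 2), which is -0.45 ± 0.26 (SE) as a log2 fold change. The WT/C134W clones were 0.65 apart on the log2 scale, more than the genotypes were. Without 3.11 the log2 fold change was -0.81, without 44b it was -0.17, without 4.72 it was -0.32, and with library totals alone it was -0.22.

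CDH13 (T-cadherin, ENSG00000140945, chromosome 16, 82626803 to 83800640, plus strand), a GPI-linked cadherin that binds adiponectin, varied more between the WT/WT clones than between the WT/C134W clones. It had 193 and 163 CPM in 3.11 and 44b, against 117 and 263 CPM in 44a and 4.72, and 175 and 204 CPM in the joined WT/C134W and WT/WT libraries. Both WT/C134W clones lay between the WT/WT clones. 4.72 was 2.25-fold higher than 44a, while 3.11 was 1.18-fold higher than 44b. A gap of 2-fold or more between 44a and 4.72 was found for 19.2% of 16416 genes tested, and between 3.11 and 44b for 20.3%. The log2 fold change between genotypes, -0.09 ± 0.40 (SE), was 0.15 with library totals alone and 0.29 on the log2(TPM + 1) scale. It was 0.61 without 4.72, -0.58 without 44a, -0.22 without 3.11 and 0.01 without 44b, so its sign rested on the choice of clone and of scaling.

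**Figure D2:**
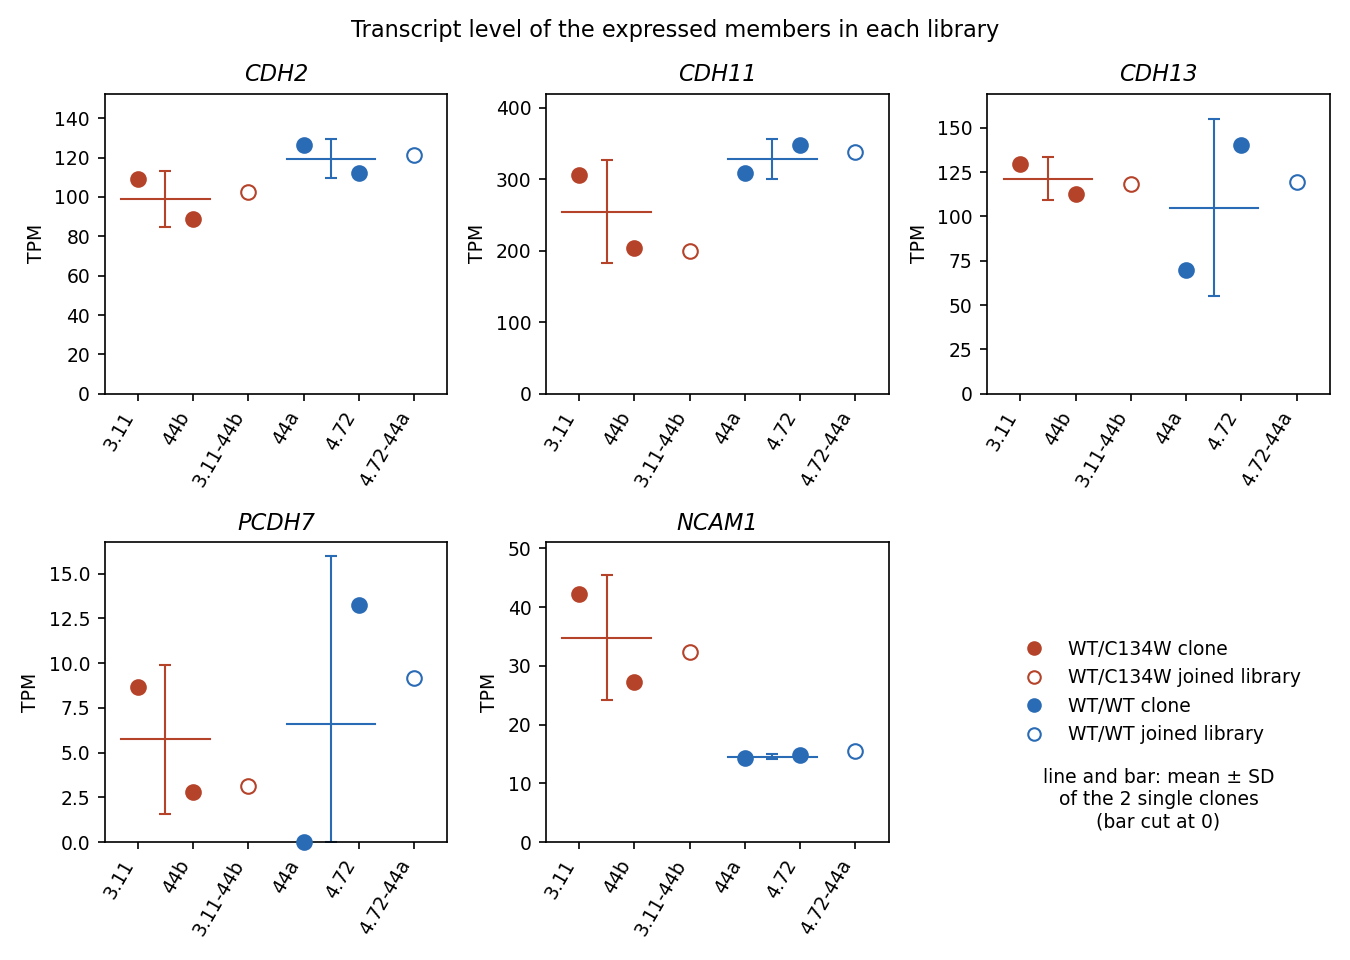
TPM of the 5 expressed members (y axis, each panel on its own scale from 0) in each library, WT/C134W on the left and WT/WT on the right. Filled points are single clones, open points joined libraries, and lines with bars the mean ± SD of 2 clones, cut at 0. NCAM1 is higher in all 3 WT/C134W libraries, while PCDH7 is at 0 in 44a and highest in 4.72, of the same genotype.

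PCDH7, a protocadherin first known from brain and heart (ENSG00000169851, chromosome 4, 30720415 to 31146805, plus strand), was on or off by clone. It had 844 and 486 expected counts in 3.11 and 44b (20.4 and 10.7 CPM), against 0 and 2299 in 44a and 4.72 (0 and 56.7 CPM). The joined libraries held 10.8 CPM (WT/C134W) and 38.0 CPM (WT/WT). With 0 of 46613068 counts in 44a, the level there was at least 836-fold lower than in 4.72, at least 300.2-fold lower than in 3.11 and at least 158-fold lower than in 44b, taking 3 counts in 44a as the floor. Of 16416 genes tested, 0.00609% (1 gene, PCDH7 itself) had at most 3 counts in 44a and at least 10 CPM in each of the other 3 clones, and 0.0305% (5 genes) had at most 3 counts in 44a and at least 10 CPM in 4.72. The reverse pattern, at most 3 counts in 4.72 and at least 10 CPM in 44a, was found for 0.0792% (13 genes). In WT/C134W, 0.0487% (8 genes) had at most 3 counts in 3.11 and at least 10 CPM in 44b, and 0.0% (0 genes) the reverse. These limits were set after the PCDH7 values had been seen. The nearest protein-coding genes with at least 1 CPM are far away and had counts in 44a. STIM2, a calcium sensor of the endoplasmic reticulum 3695034 bases before PCDH7, had 25.7 and 22.6 CPM in 3.11 and 44b, against 15.7 and 17.7 CPM in 44a and 4.72. ARAP2, 4801416 bases after it, had 12.0 and 13.3 CPM in 3.11 and 44b, against 12.0 and 10.2 CPM in 44a and 4.72. The PCDH7 promoter is shown because its gene had no count in 1 clone only, at chr4:30720119-30720418 on the plus strand.
PCDH7 start: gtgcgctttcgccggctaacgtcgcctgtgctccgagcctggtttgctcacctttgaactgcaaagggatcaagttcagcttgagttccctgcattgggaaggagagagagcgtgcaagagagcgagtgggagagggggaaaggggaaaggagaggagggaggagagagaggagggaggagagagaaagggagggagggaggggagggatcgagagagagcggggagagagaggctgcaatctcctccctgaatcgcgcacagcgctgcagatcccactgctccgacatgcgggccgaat
It had 60.3% GC and 16 CpG dinucleotides, more CpG than 52.6% of promoter windows, and none of the 4 motifs, so it has no capitals. These counts say nothing of the cause, which was not tested.

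Over the genotypes PCDH7 therefore gave no stable difference. The mean was 15.5 ± 6.83 CPM in WT/C134W and 28.4 ± 40.1 CPM in WT/WT (SD, n = 2), which is -0.87 ± 2.44 (SE) as a log2 fold change. Without 44a it was -1.89, without 3.11 -1.41 and without 44b -0.49, whereas without 4.72 the only WT/WT clone was at 0 and the fitted value turned positive (12.4), which depends on the prior count. Within WT/C134W, 3.11 exceeded 44b 1.90-fold in CPM but 3.10-fold in TPM. The abundance-weighted transcript length of PCDH7 was 3814 bases in 3.11 and 5865 bases in 44b, and 5933 bases in 4.72, so the TPM scale raised 3.11 most.

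NCAM1 (CD56, ENSG00000149294, chromosome 11, 112961247 to 113278436, plus strand) was the 1 tested member at a higher level in WT/C134W. It had 98.6 and 66.4 CPM in 3.11 and 44b, against 40.8 and 35.6 CPM in 44a and 4.72. The joined libraries held 68.4 CPM (WT/C134W) and 34.9 CPM (WT/WT). All 3 WT/C134W libraries lay above all 3 WT/WT libraries. The mean was 82.5 ± 22.8 CPM in WT/C134W and 38.2 ± 3.61 CPM in WT/WT (SD, n = 2), 2.16-fold higher in WT/C134W, with a log2 fold change of 1.11 ± 0.23 (SE). The WT/C134W clones were 0.57 apart on the log2 scale and the WT/WT clones 0.19, both less than the genotypes. With 2 clones each, and NCAM1 chosen with this difference known, that order is a description only. Leaving out 1 clone at a time gave 0.80 to 1.36, and all other settings lay between 1.07 and 1.33. An antisense gene within NCAM1, AP000802.1, had 22 to 58 counts, against 1360 to 4087 for NCAM1. The sources used here do not state the strand setting of the counting, so a share of this size cannot be told apart.

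Of the 8 members, 5 passed the low-count filter through levels in these same samples, 4 with a negative and 1 with a positive log2 fold change. None was called, and 0.0% of genes were (0 of 16416 with an adjusted p under 0.05 in edgeR's quasi-likelihood test, and 1243 with an unadjusted p under 0.05). DESeq2 called 1.72% of genes, NCAM1 among them. edgeR called 3.18% with all 6 libraries, NCAM1 and CDH2 among them, and 2.73% without the low-count filter, NCAM1 and PCDH7 among them. The fit on 6 libraries counts the joined libraries as further replicates, though they may be mixes of the clones. For PCDH7 the WT/WT clones were at 0 and 56.7 CPM, with both WT/C134W clones between them. With a replicate block edgeR called 0.0305%, no member among them. limma on log2(TPM + 0.1) called 0.0143%, again no member. In the 4 clones NCAM1 was higher without overlap of the genotypes, as were 19.9% of all genes tested, and CDH2 and CDH11 were lower without overlap, as were 19.7%. CDH13 and PCDH7 overlapped. Since the members were listed from this comparison, these counts are not read further. The joined libraries lay between their clones, ends included, for 8 of 8 members in WT/C134W and for 5 of 8 in WT/WT. The exceptions were CDH1, CDH2 and NCAM1, of which CDH2 and NCAM1 missed the range of 315 to 330 CPM and of 35.6 to 40.8 CPM narrowly. CDH3 and CDH6 in both genotypes, and CDH1 in WT/C134W, counted as between because the joined library and a clone were both at 0. No share over all genes was worked out. These counts do not tell whether the joined libraries are mixes.

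**Figure D3:**
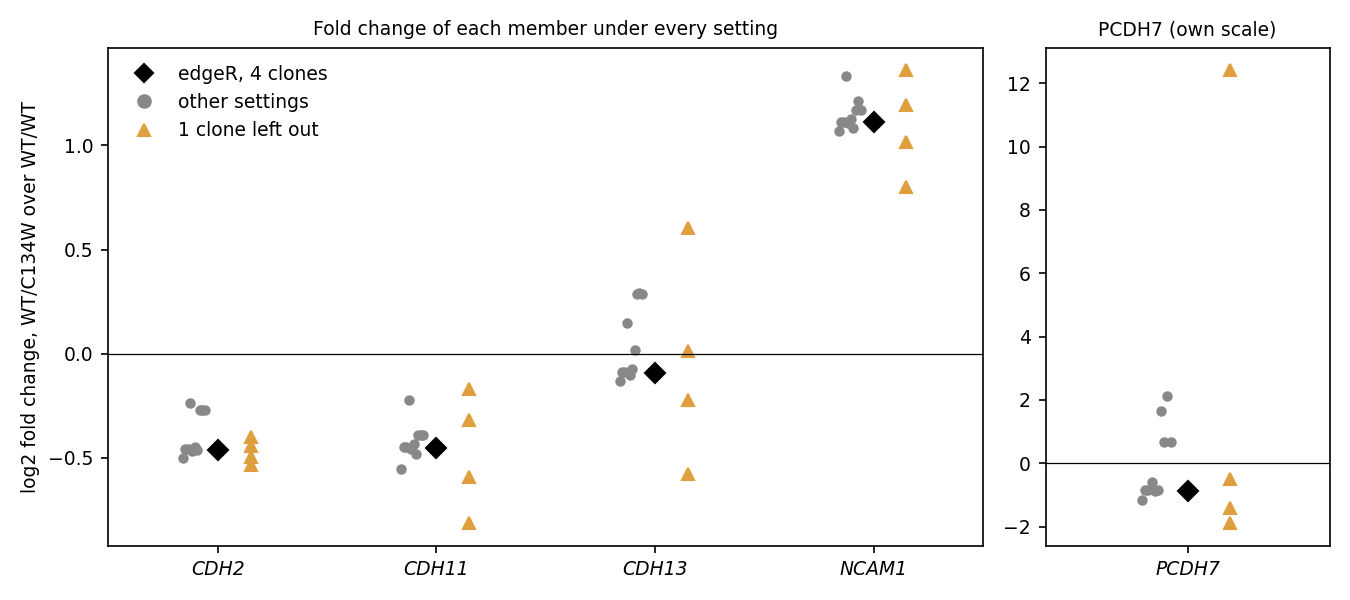
Log2 fold change of each expressed member between genotypes (y axis, positive where WT/C134W is higher, PCDH7 on its own scale), from edgeR on 4 clones (diamond), other settings (grey) and with 1 clone left out (triangle). NCAM1 stays between 0.80 and 1.36 and CDH2 between -0.53 and -0.24, while CDH13 and PCDH7 fall on both sides of 0.

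The abundance-weighted transcript length is a measure of the isoform mix that entered the choice of genes only through TPM. It differed between libraries by at most 1.25-fold for 4 of the 5 expressed members, PCDH7 being the exception. CDH1, with at most 11 counts, ranged from 301 to 2224 bases. It ran from 3462 to 4000 bases for CDH2, from 2068 to 2355 bases for CDH11 and from 2318 to 2683 bases for CDH13. For NCAM1, whose isoforms differ in their anchor and cytoplasmic tail, it was 3791 and 3788 bases in 3.11 and 44b, against 4095 and 3389 bases in 44a and 4.72. The WT/WT clones lay on either side of the WT/C134W clones. For PCDH7 3.11 stood apart, at 3814 bases where the other libraries with counts had 5342 to 5933. PCDH7 has 8 transcripts in the tables, from 287 to 6769 bases, and which of them 3.11 made more of is not shown by gene totals.

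**Figure D4:**
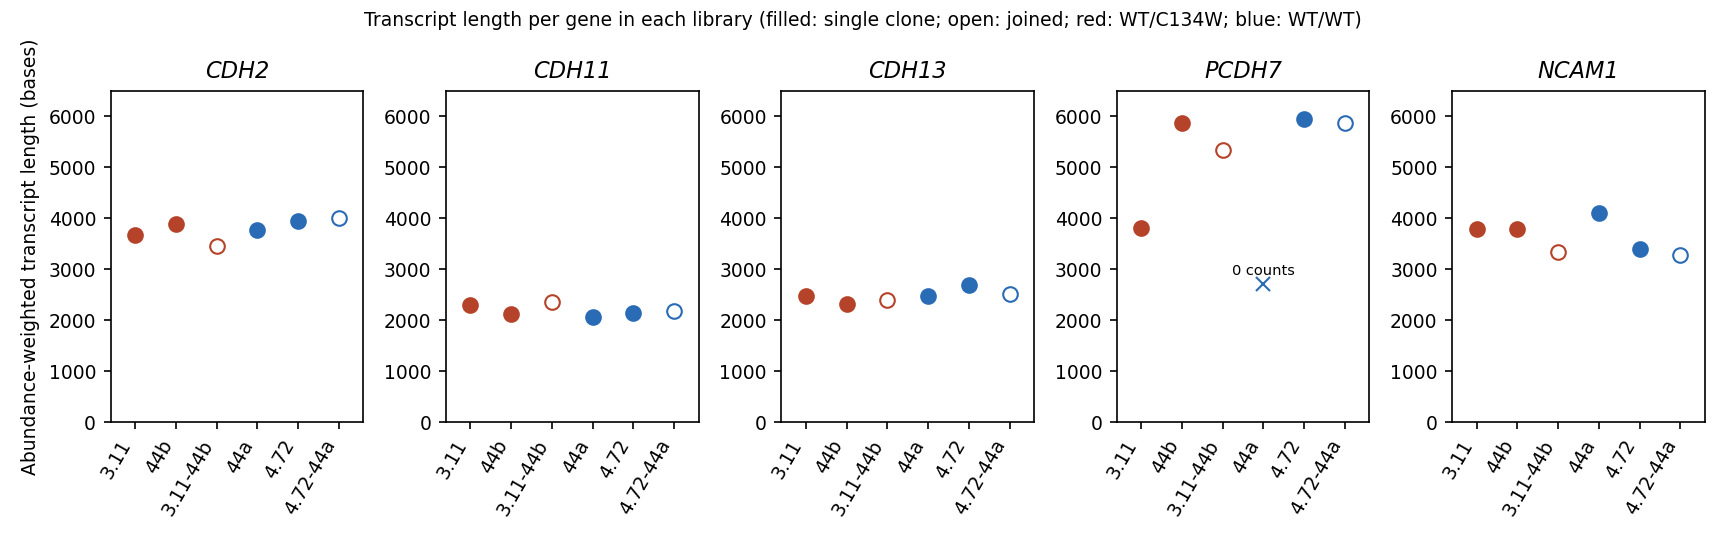
Abundance-weighted transcript length of the 5 expressed members in bases (y axis) in each library, WT/C134W on the left and WT/WT on the right, filled for single clones and open for joined libraries. PCDH7 in 3.11 lies at 3814 bases, below the other libraries with counts, and the cross marks 44a, which had 0 counts.

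Genes with the most similar pattern over the 6 libraries were looked up among 11700 protein-coding genes that averaged 1 TPM or more, by the root mean square difference of centred log2(TPM + 1). So many genes compared over 6 libraries, 2 of them possible mixes, give close matches for most patterns, and the names are a description. For NCAM1 they were CRYBG1 (0.08), VEPH1 (0.10) and EBF1 (0.10). CRYBG1 had 27.5 and 15.5 TPM in 3.11 and 44b, against 9.30 and 9.82 TPM in 44a and 4.72. For PCDH7 the nearest were much less alike: PTGER3, a prostaglandin E receptor (0.33), HLA-DPA1, an HLA class II chain (0.40), and FBLN2, a matrix glycoprotein (0.42). PTGER3 had 21.5 and 5.92 TPM in 3.11 and 44b, against 0.13 and 20.4 TPM in 44a and 4.72. Its low value in 44a is part of the pattern it was matched on, not a separate result. For CDH13 they were SNAPC2 (0.04), BNIP3, a mitophagy receptor (0.04), and PCGF1, a Polycomb subunit (0.05). CDH11 was nearest to DNASE2, a lysosomal nuclease (0.04), NAALADL2 (0.09) and FBXL17 (0.09). Among the genes nearest to CDH2 were E2F2, a cell cycle transcription factor (0.05), and COPG1, a coat protein of Golgi vesicles (0.05).

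Of 120 listed genes that work with the members, 48 did not pass the low-count filter, and 0 of the 72 tested passed the threshold. Of these 72, 31 had a positive and 41 a negative log2 fold change, with a median of -0.05, against 0.01 over all 16416 genes tested. Before adjustment 5 of them (6.94%) had a p under 0.05, against 7.57% of all genes, and the smallest adjusted p was 0.593 in edgeR's test. Scaled by library totals alone, 55 of the 72 were positive with a median of 0.16, beside 70.6% of all genes tested, against 50.6% with TMM, and the sign counts given below for 6 of the 8 lists moved the same way (those of the other classical cadherins and protocadherins did not). The single values below are weakly fixed: for 23 of 23 named genes with a log2 fold change it turned sign or moved by over 1.5 times in at least 1 other setting, and for 18 of them when 1 clone was left out. Of the 13 tested catenins and junction adaptors, 4 had positive and 9 negative values, with a median of -0.07. VCL, vinculin of the actin link, had 228 and 254 TPM in 3.11 and 44b, against 276 and 361 TPM in 44a and 4.72, with a log2 fold change of -0.53 ± 0.23 (SE). It was -0.30 without 4.72 and also with library totals alone. IQGAP1, a scaffold of actin and cadherins, stood at 0.01 and CTNNA1, alpha-catenin, at -0.21. Beta-catenin (CTNNB1, 103 to 164 TPM over all libraries) and p120-catenin (CTNND1, 64.1 to 81.0 TPM), named after their values were seen, are the other parts of the cadherin complex.

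Among the other classical cadherins 2 of 14 were tested, both with negative values: CDH24 at -0.43, with 9.81 and 11.1 TPM in 3.11 and 44b, against 13.2 and 12.7 TPM in 44a and 4.72, and CDH18 at -2.14, with 0.54 and 0.63 TPM in 3.11 and 44b, against 2.02 and 1.10 TPM in 44a and 4.72. For both genes the joined WT/C134W library was the highest of the 6, at 15.6 TPM for CDH24 and 2.52 TPM for CDH18, against 12.8 and 2.25 TPM in the joined WT/WT library. CDH24 was at -0.23 with all 6 libraries, -0.21 with library totals alone and -0.26 without 3.11. CDH18 was at -1.14 with all 6 libraries and -0.67 on the log2(TPM + 1) scale. CDH8, next by level, had counts in 4.72-44a alone (1.03 TPM). The atypical cadherins had 8 positive and 3 negative values among 11 tested (median 0.21). Of these, FAT1, a giant cadherin related to the fly growth regulator Fat, had 112 and 122 TPM in 3.11 and 44b, against 153 and 146 TPM in 44a and 4.72, and a log2 fold change of -0.21. CLSTN1 stood at -0.09 and CLSTN3 at 0.28. The other non-clustered protocadherins had 3 positive and 2 negative values among 5 tested (median 0.26), with PCDH18 at 0.26 (0.072 without 44a), PCDH10 at -1.31 (1.80 without 4.72) and PCDH1 at -2.60. PCDH1 had 1.62 and 3.13 TPM in 3.11 and 44b, against 7.56 and 1.59 TPM in 44a and 4.72, so the genotypes overlapped in TPM. The -2.60 rests on counts, for which overlap is not given here. The log2 fold change of PCDH1 was -0.84 without 44a and -0.52 on the log2(TPM + 1) scale. PCDH10, like PCDH7, was lowest in 44a: it had 5.49 and 2.14 TPM in 3.11 and 44b, against 1.38 and 16.9 TPM in 44a and 4.72.

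Nectins and nectin-like proteins, which start junctions before cadherins join them, had 1 positive and 4 negative values among 5 tested (median -0.14), with PVR at -0.51, NECTIN3 at -0.14 and NECTIN2 at -0.33. Without 3.11 PVR was at -0.33 and NECTIN2 at -0.16. The immunoglobulin family and NCAM1 partners had 4 positive and 6 negative values among 10 tested (median -0.15). The most abundant were MCAM (CD146) at -0.62, ALCAM (CD166) at -0.14 and FGFR1, a growth factor receptor that NCAM1 binds, at -0.24. MCAM was at -0.36 without 4.72 and -0.41 without 3.11. Regulators of the epithelial-mesenchymal balance had 6 positive and 8 negative values among 14 tested (median -0.02). VIM, the mesenchymal filament vimentin, had 7590 and 7465 TPM in 3.11 and 44b, against 7721 and 7008 TPM in 44a and 4.72, with a log2 fold change of -0.13. PRRX1 (-0.01) and SNAI2 (0.17), both transcription factors, were the next most abundant, and SNAI2 was at 0.068 without 44a. The epithelial genes ESRP1, GRHL2 and OVOL2 were at 0. Shedding and turnover genes had 5 positive and 7 negative values among 12 tested (median -0.07). ADAM10, the protease that cleaves N-cadherin at the surface, stood at -0.02, with 162 and 146 TPM in 3.11 and 44b, against 133 and 131 TPM in 44a and 4.72. NCSTN, a gamma-secretase subunit, stood at -0.49 and FURIN, which cuts the cadherin prodomain, at -0.62 ± 0.16 (SE).

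**Figure D5:**
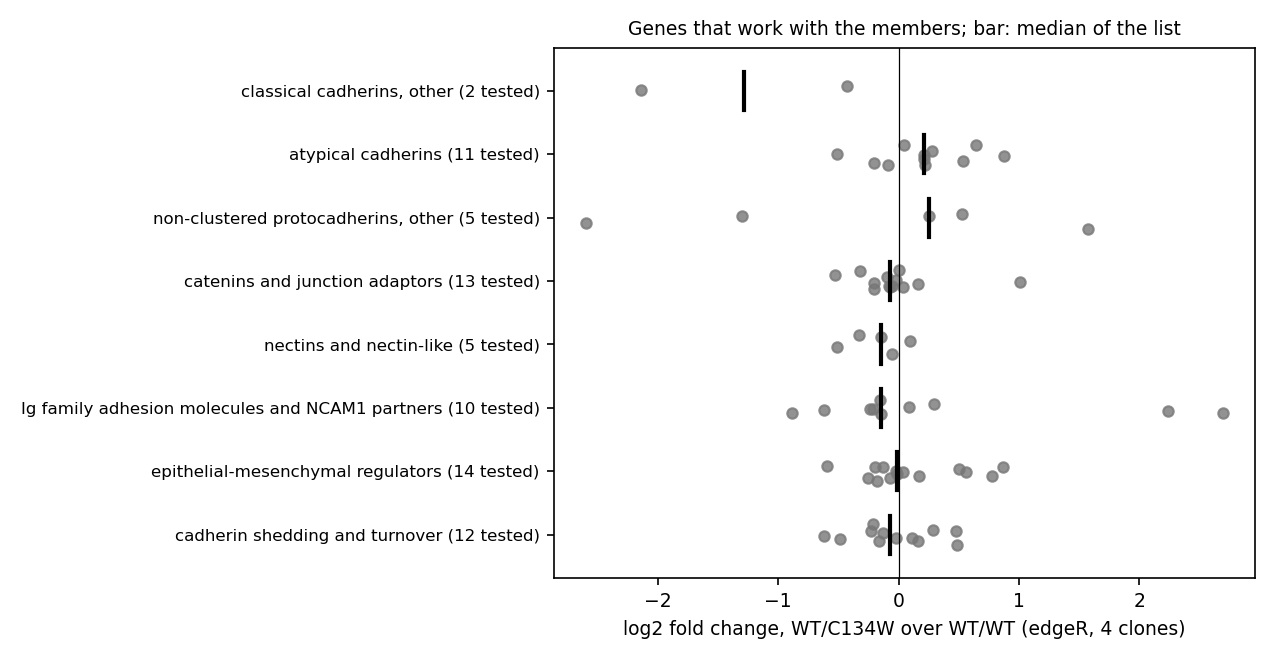
Log2 fold change between genotypes (x axis, positive where WT/C134W is higher) of each tested gene in 8 lists of genes that work with the members, with a bar at each list's median. Most points lie near 0, the medians of lists with at least 10 tested genes run from -0.15 to 0.21, and 0 of 72 genes passed the threshold.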

How the data were processed

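Gene tables of 6 libraries were grouped by the genotype label. A stranded mRNA kit was used, per the labels' protocols. Per the file headers, the tables hold RSEM's expected count, unscaled and with decimals, the TPM, scaled by length and library by the authors, and a gene length weighted by transcript abundance. The deposited FPKM was not used. Per the submitters' processing notes, RSEM 1.3.1, STAR 2.7.6a, DESeq2 1.26.0, Picard 2.8.1 and R 3.6.3 were used, without stated roles. These notes also give GRCm38, a mouse build, while the 58336 gene IDs are all human. Human build and strand setting: not given in the sources used here. Symbols and coordinates (GRCh38) came from GENCODE release 29, which held 58216 of the IDs.

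Expected counts were rounded, filtered with filterByExpr, TMM-scaled and tested on the 4 single clones with edgeR 4.0.16 under R 4.3.3 (glmQLFTest after a robust glmQLFit). Adjusted p (Benjamini-Hochberg) had to be under 0.05. The test was tried on simulated data. Alternatives were all 6 libraries, DESeq2 1.42.0, median-ratio factors, library totals, no filter, 10 CPM in at least 2 libraries, each clone left out, a replicate block and limma 3.58.1 on log2(TPM + 1) or log2(TPM + 0.1). The labels do not say whether libraries came from separate cultures, so p-values measure the spread between these clones. The members, lists and tests were chosen with earlier results of these data known. Named genes are the members, FOXL2, up to 3 genes of highest mean TPM in each of 8 lists, and the 3 genes nearest in pattern to each expressed member. Some genes under these rules are not reported here.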

Additional observations from a re-analysis of the deposited data

How the results depend on the processing

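With 2 clones per genotype the number of genes called depends on the method. edgeR on the 4 clones called 0 genes. It called 511 of 16046 (3.18%) with all 6 libraries, where joined libraries that may be mixes count as replicates. Without a low-count filter it called 664 of 24301 (2.73%). With a replicate block that pairs 44a with 44b and 4.72 with 3.11 it called 5 of 16416 (0.0305%). DESeq2 called 283 (1.72%) and limma on log2(TPM + 0.1) called 2 (0.0143%), and the other settings, leaving out 1 clone included (0 to 0), called 0. Of the adhesion partner genes, 2 were called with all 6 libraries (FURIN and NCSTN), 1 by DESeq2 (FURIN) and 3 without the filter (PCDH10, PCDH1 and NFASC), with 0 in every other setting and 0 to 0 with 1 clone left out. The labels do not state the pairing behind the block. Deviations of 44a and 44b from their group means correlated at 0.27 across 16416 genes, and the block changed no call of a member or partner gene. For the members the sign of CDH2, CDH11 and NCAM1 held in all 14 settings. That of CDH13 changed in 7 and that of PCDH7 in 5, where the log2(TPM + 1) scale gave 0.69 and the block 1.65. All settings reuse the same libraries. CDH2, CDH11 and NCAM1 did not overlap between genotypes in the 4 clones, so leaving out 1 clone could hardly turn their sign. Their steady sign is therefore no separate support for a difference. Among the named partner genes, none of which edgeR called on the 4 clones, the sign of the log2 fold change turned in 45 of 319 values. With library totals alone it was 0.20 for ADAM10, 0.093 for ALCAM, 0.13 for CLSTN1, 0.015 for CTNNA1, 0.014 for FAT1, 0.087 for NECTIN3, 0.22 for PRRX1 and 0.093 for VIM. On the TPM scales it was 0.21 for ADAM10, 0.11 for ALCAM, 0.095 and 0.096 for CLSTN1, 0.18 for FGFR1, 0.047 and 0.048 for NECTIN3, 0.27 for PRRX1 and 0.033 for VIM. PRRX1 was at 0.0068 with the filter of 10 CPM and IQGAP1 at -0.025 with all 6 libraries. With 1 clone left out the values ran from -0.19 to 0.13 for ADAM10, from -0.49 to 0.29 for ALCAM, from -0.22 to 0.027 for CLSTN1, from -0.10 to 0.77 for CLSTN3, from -0.62 to 0.26 for FGFR1, from -0.13 to 0.12 for IQGAP1, from -0.36 to 0.096 for NECTIN3, from -2.40 to 1.80 for PCDH10 and from -0.49 to 0.34 for PRRX1. With 1 clone left out, the lone clone of a genotype is assumed to vary like the pair of the other. The cause of these turns was not tested.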

Other observations

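Some genes that work with the members spanned a wide range over the 4 clones. Of 49 partner genes that reached 10 TPM in some library, 4 were at least 4-fold apart between the lowest and the highest of the 4 clones. This limit was set after their values had been seen. No share over all genes was worked out for it, so these genes are not shown to vary more than others. In CPM, 19.2% of all genes tested were at least 2-fold apart between 44a and 4.72 alone. L1CAM, a neural adhesion molecule of the immunoglobulin family, had 0.06 and 10.3 TPM in 3.11 and 44b (WT/C134W), against 12.5 and 0.24 TPM in 44a and 4.72 (WT/WT). CADM4, a nectin-like protein, had 8.62 and 45.9 TPM in 3.11 and 44b, against 45.6 and 11.1 TPM in 44a and 4.72. Both were high in 44a and 44b, whose names share a stem, and low in 3.11 and 4.72. PCDH10, given with the results, was the reverse, low in 44a and 44b. Among the members, CDH11, CDH13 and PCDH7 were lower in CPM in 44a than in 4.72, and in 44b than in 3.11. For CDH2 and NCAM1, 44b was likewise below 3.11, but 44a lay above 4.72. No share over all genes was worked out for this order. NFASC, neurofascin, had 11.9 and 8.61 TPM in 3.11 and 44b, against 0.12 and 3.88 TPM in 44a and 4.72, and was lowest in 44a, as PCDH7 was. Both WT/C134W clones lay above both WT/WT clones for NFASC, with a log2 fold change of 2.24. In CPM, 19.9% of all genes tested were likewise higher in WT/C134W without overlap.

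NCAM1 is known to be modified with polysialic acid by the enzymes ST8SIA2 and ST8SIA4. ST8SIA2 had 32.1 and 16.7 TPM in 3.11 and 44b, against 10.3 and 28.1 TPM in 44a and 4.72, so the genotypes overlapped in TPM. ST8SIA4 had 2.34 and 0.09 TPM in 3.11 and 44b, against 0 and 0.80 TPM in 44a and 4.72. Both were named after their values had been seen.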
